A study of Mus musculus with 7 samples.

Results

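Transcripts of 10 genes used to recognise muscle satellite cells, the stem cells of skeletal muscle, were followed in cells sorted from mouse femurs. The genes (Pax7, Myf5, Myod1, Cdh15, Megf10, Itga7, Calcr, Chrdl2, Sdc4 and Des) were chosen by name from the 42687 genes of the count table, by matching each Ensembl identifier to its symbol. All 10 were found, all 10 had counts in every library, and all 10 passed the filter on low counts that left 14304 genes for testing. C57BL/6 mice aged 3 months at the start were fed for 4 weeks on a control diet with 10% fat (LFD) or a diet with 60% fat (HFD). Femurs were broken up mechanically and with enzymes, and cells carrying both CD24 and CD29 were sorted by flow cytometry, a population labelled as skeletal stem cells of bone. The LFD group held 4 libraries, LFD 1 to LFD 4, the HFD group 3, HFD 2 to HFD 4, and the labels name no other treatment, no transgene and no pooling of animals. The comparison asks how 4 weeks of the diet altered the transcripts of the sorted cells.

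Satellite cells lie between the muscle fibre and its basement membrane and stay quiescent until injury. Pax7 marks the quiescent and the activated cell. Myf5 and Myod1 are basic helix-loop-helix transcription factors that commit it to the muscle lineage, and Myog then drives differentiation into fibres. The other genes of the set encode surface and structural proteins: M-cadherin (Cdh15), the engulfment receptor Megf10, the laminin receptor chain integrin alpha 7 (Itga7), the calcitonin receptor (Calcr), the BMP-binding protein chordin-like 2 (Chrdl2), the heparan sulfate proteoglycan syndecan 4 (Sdc4) and the intermediate filament protein desmin (Des). CD29, one of the sorting markers here, is integrin beta 1, the partner chain of integrin alpha 7, and is itself used to sort satellite cells from muscle. Several of the genes are also active elsewhere, Calcr in osteoclasts, Des and Itga7 in smooth muscle, and Sdc4 in many cell types.

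The libraries held between 17391613 and 24681838 counts, spread over 15394 to 18850 detected genes. Sex and diet went together in their transcripts. Xist counts lay between 257 and 526 in LFD and were 0 throughout HFD, while the sum of Ddx3y, Uty, Eif2s3y and Kdm5d was 1 to 5 counts in LFD and 2494 to 3405 counts in HFD. Diet and sex therefore cannot be told apart in any difference given below. None of the 10 genes lies on X or Y (0 of 10). Transcripts of other blood cells were abundant. The sum of 6 granulocyte genes was 902 to 4790 CPM in LFD and 7763 to 15320.5 CPM in HFD, without overlap, and DESeq2 called all 6 while edgeR called 0 (6 at an unadjusted p under 0.05). The sum of 8 erythroid genes was 92269 to 158263 CPM in LFD and 22139 to 107421 CPM in HFD, with overlap, and 0 of the 8 passed an unadjusted p of 0.05 by edgeR or were called by DESeq2. Of all tested genes 7.53% passed that unadjusted p and 2.09% were called by DESeq2, in either direction. CPM are counts scaled to a common library size with TMM factors. The part of these other cells in the results below was not tested. Whether each library stands for its own animal is not labelled, and the p-values cover only sample-to-sample spread, part of which may be technical.

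Muscle lineage genes were present in all 7 libraries, with 58 counts (Pax7 in HFD 2) as the lowest value of any of the 10 genes and 12829 counts (Sdc4 in HFD 2) as the highest. Levels were compared between genes per kilobase of exon (RPKM, from the CPM and the summed exon length). Sdc4 was first in every library, at 135 ± 23.6 RPKM (SD, n = 7). Cdh15 followed at 42.1 ± 18.6, Des at 33.6 ± 18.7 and Myf5 at 30.5 ± 13.8 RPKM. These SDs span both groups. The order of the 3 neighbours varied between libraries. Cdh15 lay above Des in 5 of 7 libraries and Des above Myf5 in 5 of 7. Their places in the order overlapped (2 to 4 for Cdh15, 2 to 5 for Des and 3 to 5 for Myf5). The ratio of Cdh15 to Myf5 within a library was 1.02 to 1.77 in LFD and 0.886 to 1.83 in HFD.

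Myod1 (18.3 ± 14.4 RPKM) and Chrdl2 (15.2 ± 9.54 RPKM) came next, and Myod1 was the higher of the pair in 3 of 7 libraries. Megf10 (7.47 ± 2.42), Calcr (7.04 ± 2.23) and Itga7 (6.70 ± 2.96 RPKM) were close together. Pax7 was last in every library, at 2.03 ± 1.14 RPKM. The transcripts of the lineage factors Myf5 and Myod1 thus stood above that of Pax7 in each library, by a factor of 2.40 to 25.3 for Myod1.

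**Figure D1:**
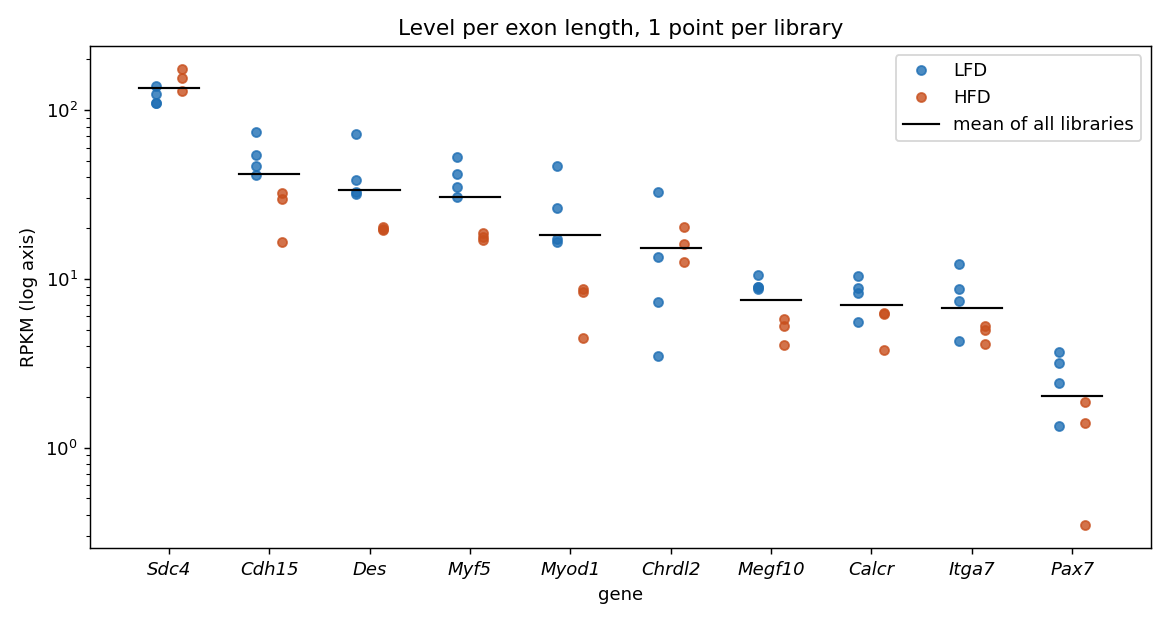
Level of the 10 genes per exon length (RPKM, log axis), with 1 point per library in blue for LFD (n = 4) and orange for HFD (n = 3) and a black line at the mean of the 7 libraries. Sdc4 is highest and Pax7 lowest in every library, while Cdh15, Des and Myf5 overlap.

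Lineage factor transcripts had lower values in the HFD libraries. Myf5 (ENSMUSG00000000435, mm10 chromosome 10, 107482908 to 107486134, minus strand) measured 110.6, 72.7, 87.0 and 63.3 CPM in LFD 1 to 4 and 35.3, 36.9 and 38.9 CPM in HFD 2 to 4. Every LFD library lay above every HFD library, and the 3 HFD values were close to each other. The group levels were 83.4 ± 20.6 (SD, n = 4) and 37.0 ± 1.81 CPM (SD, n = 3), a log2 fold change of HFD against LFD of -1.17 ± 0.23 (SE). This did not pass edgeR's quasi-likelihood test after Benjamini-Hochberg adjustment over all genes (adjusted p = 0.230), while DESeq2 called it (adjusted p = 0.000597).

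Myod1 (ENSMUSG00000009471, chromosome 7, 46376474 to 46379099, plus strand) measured 49.2, 30.7, 86.5 and 31.9 CPM in LFD 1 to 4 and 16.3, 15.5 and 8.35 CPM in HFD 2 to 4. LFD 3 was the highest and HFD 4 the lowest, and the groups did not overlap. Its log2 fold change, -1.89 ± 0.45, was the farthest from 0 among the 10 genes, with an adjusted p of 0.285 by edgeR and of 0.00551 by DESeq2. Pax7 (ENSMUSG00000028736, chromosome 4, 139737062 to 139833528, minus strand), the least abundant of the set, measured 21.6, 7.88, 14.1 and 18.5 CPM in LFD and 2.03, 8.20 and 11.0 CPM in HFD. Its groups overlapped, because LFD 2 lay below HFD 3 and HFD 4, and HFD 2 stood lowest of all. Its log2 fold change was -1.13 ± 0.60 (edgeR adjusted p = 0.693), and no tool run called it (DESeq2 adjusted p = 0.465).

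The proportions among these factors varied from library to library. The ratio of Myod1 to Myf5 in RPKM was 0.472 to 0.564 in LFD 1, 2 and 4, and 1.11 in LFD 3. It was 0.516 in HFD 2, inside the LFD range, 0.471 in HFD 3, just under the lowest LFD value, and 0.240 in HFD 4. The ratio of Pax7 to Myf5 was 0.0385 to 0.104 in LFD and 0.0204 to 0.1003 in HFD. The ranges overlapped, with HFD 2 (0.0204) below every LFD library. The mean ratio was 0.0672 ± 0.0274 in LFD (SD, n = 4) and 0.0666 ± 0.0414 in HFD (SD, n = 3).

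Adhesion and engulfment genes gave the same direction. Cdh15, which holds satellite cells to the fibre (ENSMUSG00000031962, chromosome 8, 122847966 to 122867397), measured 176, 152, 240.0 and 134 CPM in LFD 1 to 4 and 96.7, 105.7 and 53.8 CPM in HFD 2 to 4. The groups did not overlap, and LFD 3 and HFD 4 were again the extremes, as for Myod1. The log2 fold change of Cdh15 was -1.04 ± 0.31 (edgeR adjusted p = 0.420, DESeq2 adjusted p = 0.0679). Megf10 (ENSMUSG00000024593, chromosome 18, 57133090 to 57297467), whose product keeps satellite cells proliferating, measured 81.3, 69.1, 67.4 and 69.4 CPM in LFD and 40.7, 44.4 and 31.2 CPM in HFD. It varied least within LFD, by 1.21-fold from lowest to highest library, and the groups did not overlap. Its log2 fold change was -0.89 ± 0.19 (edgeR adjusted p = 0.266, DESeq2 adjusted p = 0.00222).

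Itga7 (ENSMUSG00000025348, chromosome 10, 128933818 to 128958282) measured 98.6, 70.6, 34.4 and 60.2 CPM in LFD and 33.0, 42.4 and 40.3 CPM in HFD. LFD 3 lay among the HFD libraries, so the groups overlapped (log2 fold change -0.77 ± 0.34, edgeR adjusted p = 0.664). Calcr (ENSMUSG00000023964, chromosome 6, 3685680 to 3764714), whose product holds satellite cells in quiescence, measured 34.3, 21.7, 32.4 and 40.6 CPM in LFD and 14.9, 24.1 and 24.7 CPM in HFD. LFD 2 fell within the HFD range, and the log2 fold change of -0.60 ± 0.30 did not pass (edgeR adjusted p = 0.685).

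Des (ENSMUSG00000026208, chromosome 1, 75360329 to 75368579) measured 272, 123, 120 and 144 CPM in LFD 1 to 4 and 73.6, 76.1 and 74.3 CPM in HFD 2 to 4. LFD 1 stood apart from the other LFD libraries, the HFD libraries were nearly equal, and the groups did not overlap. The log2 fold change was -1.14 ± 0.32 (edgeR adjusted p = 0.383, DESeq2 adjusted p = 0.0282). Without LFD 1 it was -0.78 (edgeR adjusted p = 0.199).

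Sdc4 and Chrdl2 did not share this direction. Sdc4 (ENSMUSG00000017009, chromosome 2, 164424247 to 164443887) measured 354, 282, 283 and 319 CPM in LFD and 448, 393 and 332 CPM in HFD. HFD 4 lay below LFD 1, so the groups overlapped (log2 fold change 0.34 ± 0.21, edgeR adjusted p = 0.707). The ratio of Sdc4 to Myf5 in RPKM, which needs no scaling between libraries, was 2.62 to 4.12 in LFD and 6.99 to 10.4 in HFD. Chrdl2 (ENSMUSG00000030732, chromosome 7, 100006172 to 100034728) measured 120, 26.7, 12.8 and 49.6 CPM in LFD and 46.2, 74.3 and 58.8 CPM in HFD. It varied 9.38-fold within LFD, the widest of the 10 genes, and its log2 fold change of 0.19 ± 0.65 turned negative without LFD 2 (-0.03) or without LFD 3 (-0.14) and was 1.01 without LFD 1.

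**Figure D2:**
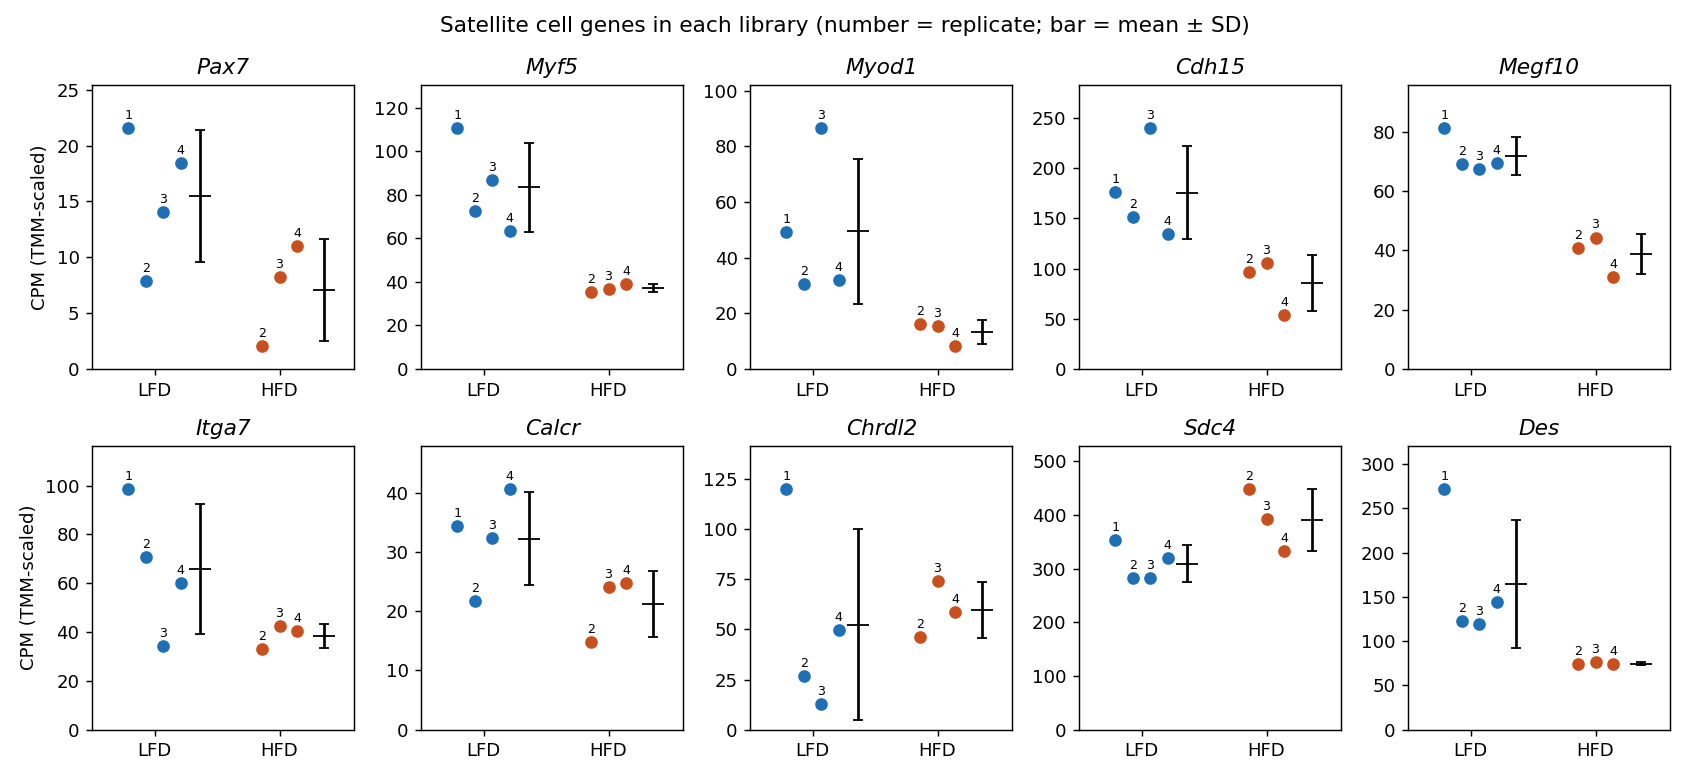
TMM-scaled CPM of each gene in each library, with blue points for LFD and orange points for HFD, the replicate number above each point, and a black bar for the group mean ± SD (n = 4 and n = 3). The groups do not overlap for Myf5, Myod1, Cdh15, Megf10 and Des, and overlap for Pax7, Itga7, Calcr, Chrdl2 and Sdc4.

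Across the set, 8 of 10 genes had a negative log2 fold change, with a median of -0.96, where 48.5% of all 14304 tested genes were negative and their median was 0.02. By edgeR's quasi-likelihood test 0 of the 10 passed an adjusted p of 0.05, against 0.035% of all genes in either direction and 0.00699% lower. The 5 genes that edgeR called included the sex-linked Ddx3y, Uty, Xist and Eif2s3y, and Xist was the 1 lower in HFD. At an unadjusted p under 0.05, 5 of the 10 were lower (Myf5, Megf10, Myod1, Des and Cdh15), against 2.35% of all genes lower and 7.53% in either direction. A log2 fold change of -1 or below was found for 5 of the 10 (Pax7, Myf5, Myod1, Cdh15 and Des), against 5.87% of all genes. The groups did not overlap, with every LFD library above every HFD library, for Myf5, Megf10, Myod1, Des and Cdh15, against 3.47% of all genes. Every HFD library lay above every LFD library for 0 of the 10, against 8.4% of all genes. DESeq2 called 4 of the 10 lower (Myf5, Myod1, Megf10 and Des), against 0.423% of genes lower and 2.09% in either direction, and limma-voom with sample quality weights called 0, against 0.021% and 0.196%. In bulk RNA, fewer satellite cells among the sorted cells and less of each transcript per cell cannot be told apart.

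The regions before the starts of Myf5 and Des are shown because both genes gave nearly constant HFD values below every LFD value, and because muscle bHLH factors such as the products of Myf5 and Myod1 bind the E-box, CANNTG. The table of RefSeq promoters (build GRCm38.p6) held 6 of the 10 genes. These are the 250 bases before the RefSeq start, 5′ to 3′ on the strand of the gene, with CANNTG in capitals, for Myf5 at chr10:107486135-107486384 (minus strand) and for Des at chr1:75360042-75360291 (plus strand, its RefSeq start lying 37 bases before the GENCODE start). No annotated exon overlapped either window.
Myf5: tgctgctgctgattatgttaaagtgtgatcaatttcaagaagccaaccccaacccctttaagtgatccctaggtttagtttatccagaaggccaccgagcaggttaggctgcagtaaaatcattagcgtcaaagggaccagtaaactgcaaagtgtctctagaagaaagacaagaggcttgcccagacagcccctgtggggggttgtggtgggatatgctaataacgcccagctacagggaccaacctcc
Des: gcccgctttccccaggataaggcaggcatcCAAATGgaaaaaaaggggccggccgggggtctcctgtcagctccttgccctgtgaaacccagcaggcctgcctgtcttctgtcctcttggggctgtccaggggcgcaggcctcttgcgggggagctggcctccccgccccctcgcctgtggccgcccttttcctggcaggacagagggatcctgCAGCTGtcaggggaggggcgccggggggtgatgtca
The motif reads the same on both strands. The Des window held 2 matches, and the 1 nearer to the start was CAGCTG. The Myf5 window held 0 matches of these letters. Of 32851 promoter windows of the same length, 66.2% held CANNTG and 13% held CAGCTG, so a match is a description of the sequence and not a binding site.

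The libraries differed in the level of the set as a whole. LFD 1 was the highest of the 7 libraries for 6 of the 10 genes (Pax7, Myf5, Megf10, Itga7, Chrdl2 and Des), LFD 3 for Myod1 and Cdh15, LFD 4 for Calcr and HFD 2 for Sdc4. HFD 2 was the lowest for 5 genes (Pax7, Myf5, Itga7, Calcr and Des), and HFD 4 for Myod1, Cdh15 and Megf10. Summed over the 10 genes the level was 1318, 856, 977 and 931 CPM in LFD 1 to 4 and 807, 821 and 674 CPM in HFD 2 to 4. HFD 2 also had the lowest erythroid sum (22139 CPM) and LFD 1 the lowest granulocyte sum (902 CPM).

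**Figure D3:**
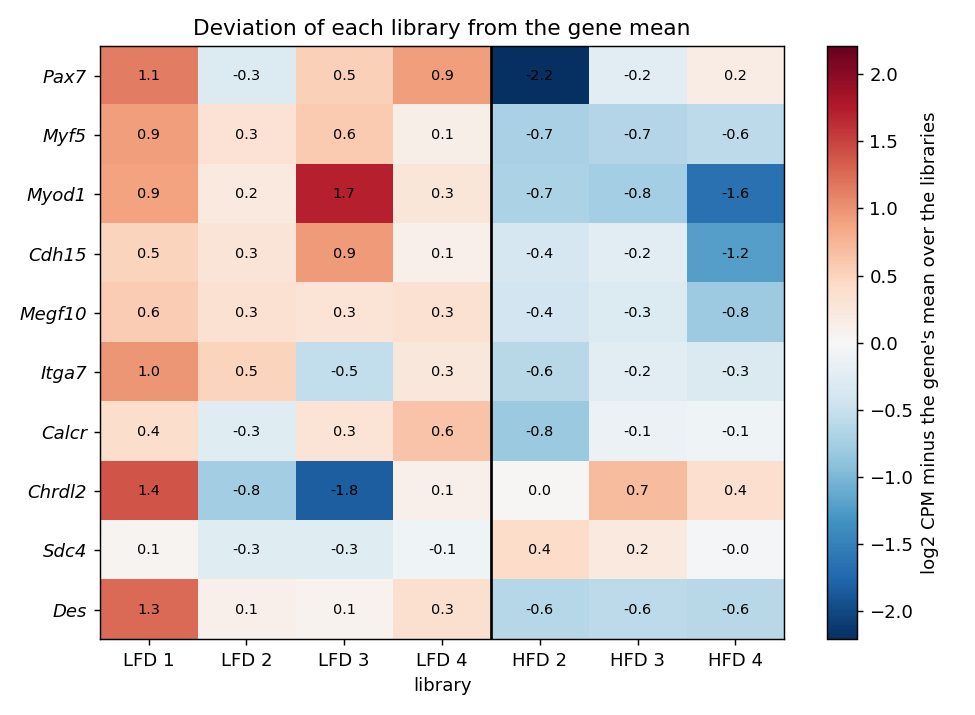
Log2 CPM of each gene in each library minus that gene's mean over the 7 libraries, in red above the mean and blue below it, with the vertical line between LFD and HFD. LFD 1 is above the mean for all 10 genes, and the rows of Chrdl2 and Sdc4 differ from the rest.

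Other genes known from satellite cells were also mostly lower in value in HFD. Of a further list of 17 such genes, all 17 were tested and 15 had a negative log2 fold change by edgeR, with a median of -0.74. Vcam1 (-0.04) and Cav1 (-0.06) among them were near 0. By limma-voom Pax3, Spry1, Vcam1, Met and Cav1 turned positive and Sdc3 negative. By edgeR 0 of 17 passed the adjusted threshold, with 5 lower at an unadjusted p under 0.05, and DESeq2 called 4 (Notch3, Fgfr4, Heyl and Dag1). Of all tested genes 48.5% were negative, 2.35% were lower at that unadjusted p, and DESeq2 called 0.423% lower. Notch3, a receptor of the Notch pathway that maintains quiescence, measured 114, 112, 124 and 98.2 CPM in LFD and 33.4, 32.9 and 46.8 CPM in HFD. The groups lay far apart, at a log2 fold change of -1.57 ± 0.21 (edgeR adjusted p = 0.0830), and limma-voom also called it (adjusted p = 0.0222). Its pathway target Heyl had a log2 fold change of -1.15 ± 0.34 (edgeR adjusted p = 0.409).

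Fgfr4, the main FGF receptor of muscle precursors, measured 287, 174, 182 and 165 CPM in LFD and 71.0, 93.4 and 84.5 CPM in HFD (log2 fold change -1.28 ± 0.26, edgeR adjusted p = 0.232). Dag1, the dystroglycan that anchors muscle cells to laminin, was the most abundant gene of the list, at 1113 ± 83.1 CPM in LFD (SD, n = 4) and 643 ± 87.9 CPM in HFD (SD, n = 3), with a log2 fold change of -0.79 ± 0.24. Chodl (chondrolectin) measured 417 ± 124 and 279 ± 21.6 CPM with overlapping groups. Syndecan 3 (Sdc3), like Sdc4, did not share the direction, at 549 ± 106 and 557 ± 109 CPM.

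Pax3, a paralogue of Pax7 active in only some muscles, was barely present. It had 67 and 26 counts in LFD 1 and LFD 2, 15 in HFD 3 and 0 in the other 4 libraries, where 3 counts, the limit that a count of 0 allows, correspond to 0.105 to 0.187 CPM. Pax7 had counts in each of those 4 libraries, from 58 to 374.

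**Figure D4:**
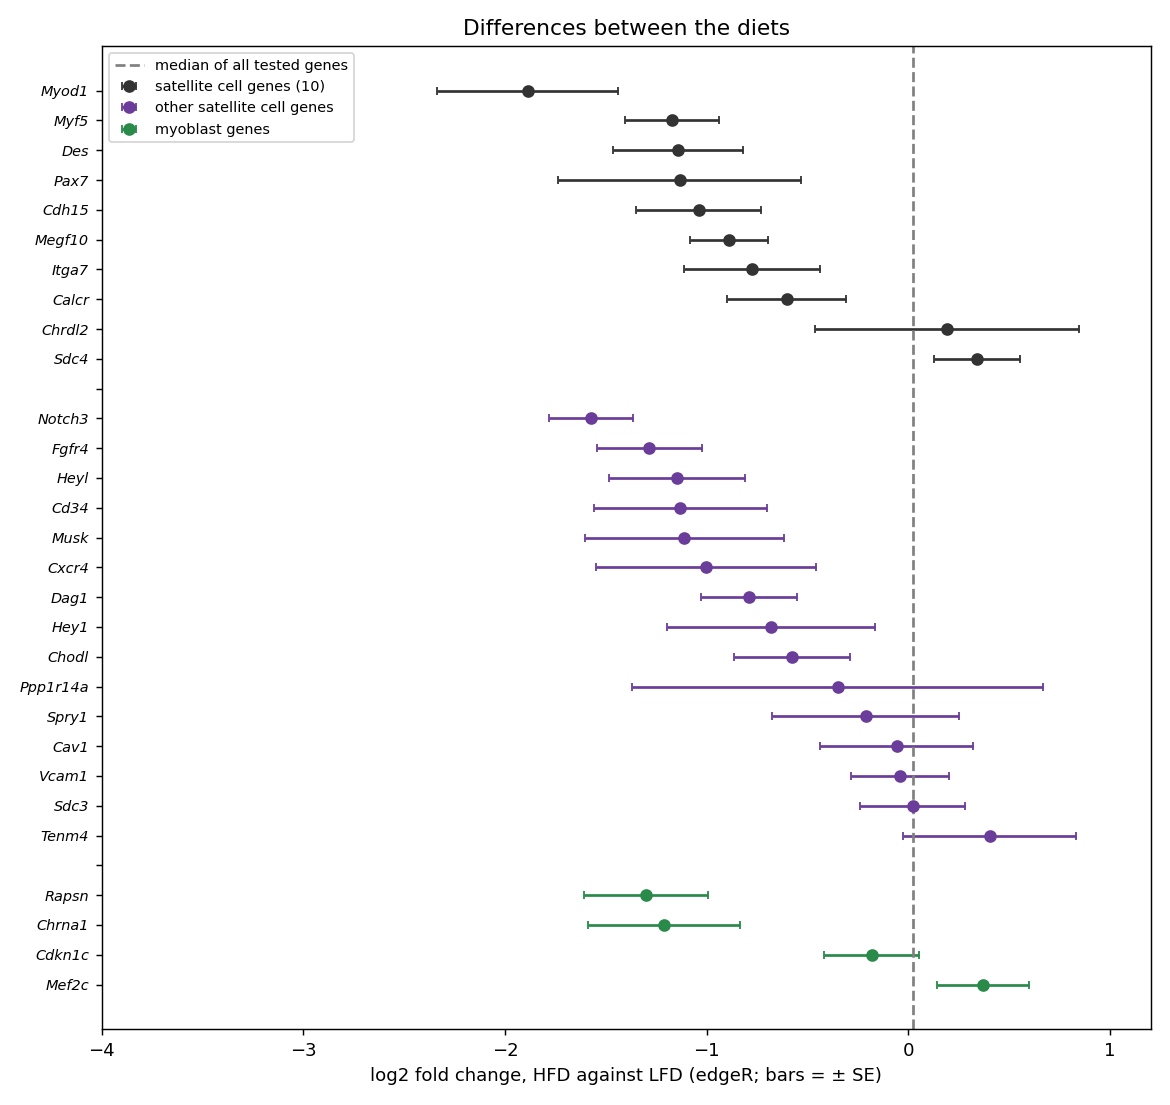
Log2 fold change of HFD against LFD from edgeR with its SE, for the 10 genes in black, other satellite cell genes in purple and myoblast genes in green, for genes with counts in every library. The dashed line is the median of all tested genes, 0.02, and 8 of the 10 black points lie to its left.

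Genes of later muscle differentiation were uneven, and 10 of the 14 listed were at 0 in at least 1 library. Myog, the factor that follows Myod1, had 811, 0, 210 and 135 counts in LFD 1 to 4 and 1, 36 and 0 counts in HFD 2 to 4. LFD 1 was the highest and LFD 2 was at 0, so the groups overlapped. Mymk, which encodes the fusion protein myomaker, had 160, 0, 44 and 13 counts in LFD and 0, 2 and 0 counts in HFD, and took the same order of LFD libraries as Myog. The fetal myosins Myh3 and Myh8 were at 0 in all libraries.

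Of the 14 genes on the myoblast list, 6 passed the low-count filter, 5 of them with a negative log2 fold change, and edgeR called 0 (3 lower at an unadjusted p under 0.05, 1 called by DESeq2). The shares of all tested genes were 48.5% negative, 2.35% lower at that unadjusted p and 0.423% called lower by DESeq2. Rapsn, which clusters acetylcholine receptors, was the gene called by DESeq2, at 39.3 ± 12.5 CPM in LFD (SD, n = 4) and 16.0 ± 3.53 CPM in HFD (SD, n = 3). Its log2 fold change was -1.30 ± 0.31 (edgeR adjusted p = 0.285). Chrna1, the receptor's alpha subunit, measured 47.1 ± 18.9 and 20.3 ± 1.19 CPM, with LFD 2 (19.8 CPM) among the HFD values. Mef2c (75.8 ± 18.9 and 97.8 ± 8.56 CPM) and Cdkn1c (45.6 ± 11.4 and 40.2 ± 2.94 CPM), which skeletal and other cells also express, had overlapping groups.

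Transcripts of mature muscle fibres were low in sum. Per kilobase of exon, Mylpf (15.0 RPKM) and Tnni2 (8.97 RPKM, means of all libraries) nonetheless lay within the range of the 10 genes. The 24 fibre genes summed to 82.9 to 109 CPM in LFD and 77.3 to 101 CPM in HFD, below the 10 satellite cell genes in each library, and 15 of the 24 were at 0 in at least 1 library. Myosin heavy chain 4 (Myh4) and the calcium channel gene Cacna1s were at 0 throughout. Muscle creatine kinase (Ckm) had 0 to 60 counts and skeletal actin (Acta1) 3.50 to 16.6 CPM. Of 16 fibre genes tested 10 had a negative and 6 a positive log2 fold change, and edgeR called 0 (1 lower and 2 higher at an unadjusted p under 0.05, 0 by DESeq2). Among all tested genes 48.5% were negative and 7.53% passed that unadjusted p in either direction. Mybpc1 (12.4 ± 2.94 and 26.0 ± 6.63 CPM), Mylpf (20.2 ± 8.89 and 10.2 ± 4.62 CPM) and Actn3 (18.1 ± 5.49 and 8.82 ± 0.486 CPM) were the highest by CPM, and they did not share a direction.

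Partners of integrin alpha 7 at the cell surface had no common direction. Of 12 laminin, integrin and dystrophin complex genes 6 had positive and 6 negative log2 fold changes, with a median of -0.07, and edgeR called 0. At an unadjusted p under 0.05, 1 was lower, against 2.35% of all tested genes. Itgb1, the partner chain and the sorting marker CD29, measured 425 ± 57.8 CPM in LFD (SD, n = 4) and 445 ± 59.7 CPM in HFD (SD, n = 3). Cd24a, the gene of the other sorting marker, measured 3467 ± 1446 and 2074 ± 1160 CPM, with overlapping groups. The laminin chains Lamb2 (214 ± 20.2 and 240 ± 45.4 CPM) and Lamc1 (88.9 ± 20.8 and 67.0 ± 7.48 CPM) also overlapped. Dystrophin (Dmd), an X-linked gene, measured 23.9 ± 7.24 and 9.22 ± 1.58 CPM (log2 fold change -1.38 ± 0.31, edgeR adjusted p = 0.273), and DESeq2 called it (adjusted p = 0.00551). Sgca, a sarcoglycan of the same complex, measured 13.5 ± 3.83 and 7.58 ± 2.10 CPM.

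Smooth muscle and pericyte genes, which share Des and Itga7 with satellite cells, split by gene. The smooth muscle markers Myh11 and Cnn1 were at 0 in 5 and 6 of the 7 libraries. Smooth muscle actin (Acta2), which activated muscle precursors and fibroblasts also make, measured 105 ± 45.0 CPM in LFD (SD, n = 4) and 31.3 ± 9.95 CPM in HFD (SD, n = 3), and Tagln lay between 8.52 and 20.6 CPM in LFD and between 2.56 and 7.25 CPM in HFD. The pericyte genes Cspg4 (322 ± 62.0 and 491 ± 85.8 CPM) and Pdgfrb (53.8 ± 17.5 and 157 ± 55.9 CPM) went the other way, with every HFD library above every LFD library. Of 8 genes tested, 3 had HFD wholly above LFD and 2 the reverse, against 8.4% and 3.47% of all genes. EdgeR called 0, and DESeq2 called Acta2, Tagln and Pdgfrb, against 2.09% of all genes in either direction. The pericyte genes Rgs5, Kcnj8 and Mcam were low, with overlapping groups and log2 fold changes of 1.39 ± 1.25, 1.55 ± 1.61 and -0.08 ± 1.10. Over the 12 genes the sum was 385 to 617 CPM in LFD and 615 to 866 CPM in HFD. Their part in the values of Des and Itga7, or of Notch3 and Heyl, was not tested.

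Osteoclast genes, the list that shares Calcr, had no common direction: of 4 tested, Calcr included, 2 had a negative and 2 a positive log2 fold change. The osteoclast genes Oscar, Ocstamp and Dcstamp had at most 14 counts in any library and Oscar had 0 in all. Ctsk measured 44.5 ± 10.2 CPM in LFD (SD, n = 4) and 90.1 ± 21.6 CPM in HFD (SD, n = 3), and Mmp9, which neutrophils also make, 83.7 ± 83.7 and 590 ± 318 CPM. For both, every HFD library lay above every LFD library, against 8.4% of all genes. Both were higher at an unadjusted p under 0.05 by edgeR, against 7.53% of all genes in either direction. EdgeR called 0, and DESeq2 called Ctsk (adjusted p = 0.0374), against 2.09% of all genes in either direction. Acp5 measured 114 ± 47.3 and 86.1 ± 39.9 CPM with overlapping groups. The sum of the 8 genes was 135 to 406 CPM in LFD and 585 to 1167 CPM in HFD, and Mmp9 made up most of it in HFD.

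Cartilage genes were abundant, as the comparison list for Chrdl2. The 10 chondrocyte genes, Chrdl2 among them, summed to 22090 to 45984 CPM in LFD and 35020 to 60234 CPM in HFD, mostly from Col2a1 (22427 ± 8845 and 29701 ± 8833 CPM), Comp (6101 ± 1790 and 7337 ± 2373 CPM) and Col11a1 (1325 ± 468 and 2262 ± 497 CPM). LFD 1 had the lowest sum of this list and the highest Chrdl2. Schwann cell genes summed to 568 to 900.3 CPM in LFD and 426 to 722 CPM in HFD, led by Pmp22, Ncam1 (97.3 ± 21.8 and 72.3 ± 10.2 CPM, also on satellite cells) and Mbp. Endothelial genes were low, at 9.24 to 25.7 CPM in LFD and 4.44 to 7.28 CPM in HFD, with Tek, Pecam1 and Kdr the highest, and Kdr was at 0 in 4 of 7 libraries. Macrophage genes summed to 118 to 725 and 1502 to 1963 CPM, nearly all from Lyz2, while Csf1r (2.67 ± 3.10 and 21.3 ± 9.01 CPM) and Cd68 (0.896 to 4.20 and 5.74 to 8.02 CPM) were low. Lyz2 put the 7 libraries in the same order as the granulocyte sum. Adgre1, Mrc1, C1qa and C1qb had overlapping groups, with log2 fold changes of 0.83, -0.84, 2.11 and 0.10.

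**Figure D5:**
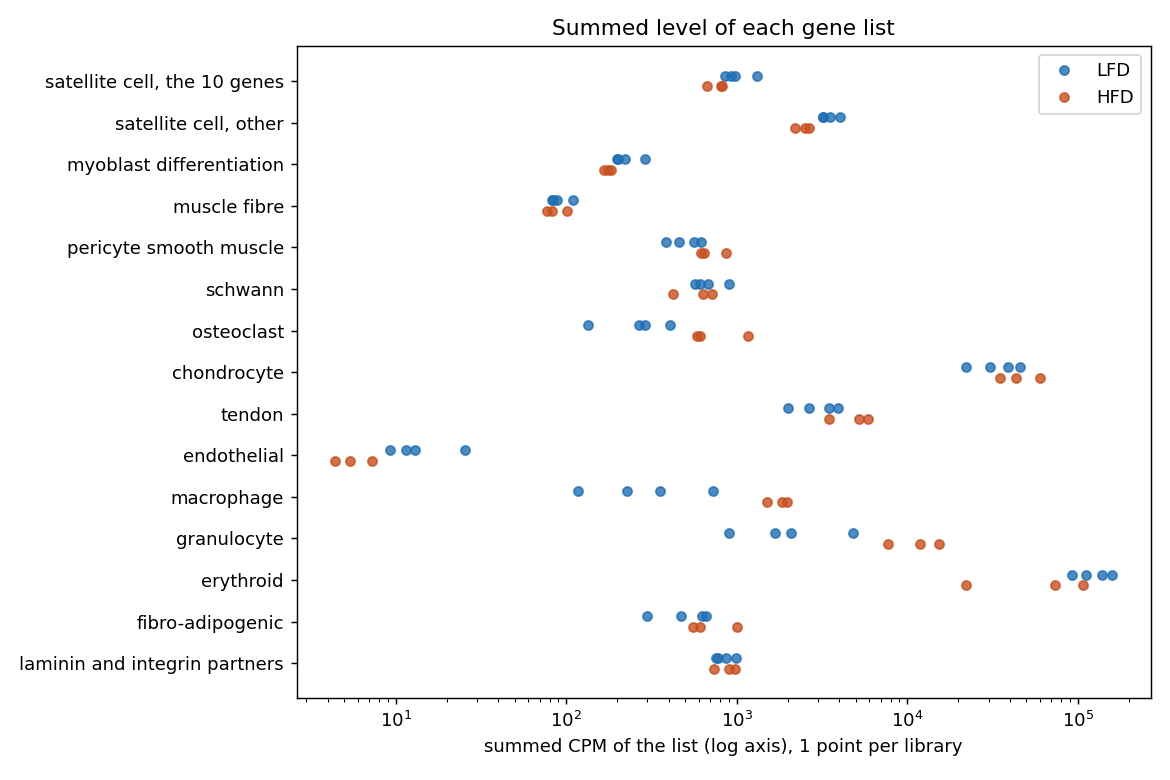
Summed CPM of each gene list (log axis) in each library, blue for LFD (n = 4) and orange for HFD (n = 3). The 10 satellite cell genes and the other satellite cell genes lie lower in HFD without overlap, as do the myoblast and endothelial lists. The granulocyte list, the macrophage list with Lyz2 in it and the osteoclast list with Mmp9 in it lie higher.

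The library pattern shared by Pax7, Myf5, Myod1 and Cdh15 was summarised as the mean of their standardised log2 CPM, and 12874 other tested genes with a mean of at least 1 CPM were ranked by Pearson correlation with it over the 7 libraries. This is a description without a test, over libraries that also differ by diet and sex. The 10 most alike were Pcdhb12, Zim1, Entpd2, Klf13, Adh1, Tab2, Ociad1, Mthfd1, Tspan12 and Puf60, with r from 0.96 to 0.99. For all 10 every LFD library lay above every HFD library, so the likeness includes the difference between the groups. The size of that difference varied. Ociad1 measured 114 ± 4.00 CPM in LFD (SD, n = 4) and 100.3 ± 4.20 CPM in HFD (SD, n = 3), the alcohol dehydrogenase gene Adh1 16.8 ± 5.40 and 4.20 ± 0.486 CPM, and Zim1 had 33 to 205 counts in LFD and 0, 3 and 0 counts in HFD.

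Listed muscle genes took varied places by this measure. Dag1 was at place 11, Fgfr4 at 19 and Notch3 at 49 of the 12874. Chrna1 was at 183, Chodl at 215, Heyl at 229, Rapsn at 248 and Myog at 290. Fgfr4, Notch3, Heyl and Rapsn had been named for their small p between the groups, and the pattern includes that difference. Dag1 and Megf10 also had every LFD library above every HFD library. The places and correlations of all genes in this paragraph therefore add no separate support. Among the genes of the set that did not define the pattern, Megf10 (r = 0.92), Des (r = 0.84) and Calcr (r = 0.74) were alike, Itga7 less so (r = 0.54), and Chrdl2 (r = -0.26) and Sdc4 (r = -0.63) were not.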

How the data were processed

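Sorted-cell RNA was amplified (SMART-Seq, low input) and libraries were prepared with Nextera XT, per the labels' protocols. The deposited values are raw counts per Ensembl gene, with STAR 2.5.2b, HTSeq 0.11.2, cutadapt, bcl2fastq 2.20, DESeq2 and the mm10 build listed in the submitters' processing notes. Strand setting: not given in the sources used here, so overlapping genes are uncertain. The kits carry no molecular identifiers, so limits for counts of 0 cover counting error only.

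Symbols matched 42250 of 42687 identifiers. Exon lengths and coordinates came from GENCODE M21 of the same build. HFD was set against LFD in edgeR 4.0.16 (R 4.3.3, quasi-likelihood test) with TMM, filterByExpr, robust fitting and Benjamini-Hochberg adjustment. The procedure was tested on simulated data. Alternatives were DESeq2 1.42.0, limma-voom (limma 3.58.1), RLE and upper-quartile scaling, no filter, a filter of 10 counts in 4 libraries, no robust fitting, no globin genes, each library left out, and a replicate block. Every pair of replicates differed by more than sampling noise (lowest chi-square over its degrees of freedom 53.8).

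The genes and lists were chosen with earlier results of these data known. Beside the 10 genes, the rule for names took up to 3 genes per list with the highest CPM, the 3 with the smallest p for the other satellite cell, myoblast and laminin lists, Cd24a, Itgb1, 5 sex-linked genes and the 10 most alike in pattern. Pax3, Myog, Tagln, genes at or near 0 and other genes outside the rule were named after their values were seen.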

Additional observations from a re-analysis of the deposited data

Results flagged for a closer look

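Within the 4 LFD libraries, 4 of 60 genes checked had 1 library set apart from the others by more than Dixon's 95% limit, which chance gives in about 1 of 20 groups. In 3 of the 4 it was LFD 1 on the high side. Megf10 measured 81.3 CPM in LFD 1 and 67.4 to 69.4 CPM in the other LFD libraries. Des measured 272 CPM in LFD 1 and at most 144 CPM in the others. Fgfr4 measured 287 CPM in LFD 1 and at most 182 CPM in the others. Ctsk was low in LFD 2, at 29.2 CPM, with 48.6 to 50.2 CPM in the others.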

How the results depend on the processing

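The 8 genes lower in HFD kept that direction in all 128 of their fits over 16 alternatives, and the number of the 10 genes lower in HFD was 8 to 9. The number called was 0 in every alternative except DESeq2 (4). The median over the 10 genes was -1.06 to -0.75. Over all genes edgeR called 5, against 8 with no filter, 0 with the strict filter, 291 with DESeq2, 28 with limma-voom, and 1 to 6 with a library left out (3 without LFD 1, and 1 without LFD 2 or any 1 HFD library). Chrdl2 turned to -0.03 without LFD 2 and -0.14 without LFD 3, in a range up to 1.01 with a library left out. Sdc3 turned to -0.16 with limma-voom, to between -0.15 and 0.14 with a library left out (-0.08 without LFD 1, -0.0025 without LFD 3, -0.15 without HFD 2), to -0.10 with the replicate block and to -0.0039 without globin genes, and Itgb1 to -0.0043 without HFD 3, in a range up to 0.17. The median of the other satellite cell genes was -0.25 with limma-voom and -0.40 without LFD 1. That of the myoblast genes was -2.35 with no filter, and that of the fibre genes was -1.04 (without HFD 4) to -0.43 with a library left out. The cause of these shifts was not tested. Same-numbered libraries did not deviate together (correlations -0.095, 0.026 and -0.062), so the numbers were not taken as pairs. With the replicate block, which leaves LFD 1 without weight in the comparison, 0 genes were called over all genes, the median over the 10 genes was -0.81, that of the fibre genes was 0.48, and Chrdl2 was 1.16. The lowest count of the 10 genes was 58, while Myog, Mymk and Pax3 were at 0 in at least 1 library.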

Other observations

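The lists for fibro-adipogenic progenitors and for tendon were mostly higher in value in HFD, without passing edgeR's test. So was the chondrocyte list, with 9 of 10 genes positive by edgeR (2 higher at an unadjusted p under 0.05, 0 called by DESeq2). By limma-voom Col2a1 (-0.07), Comp (-0.03), Col9a1 (-0.03) and Cnmd (-0.05) turned slightly negative. The median of the chondrocyte list was 0.17 to 0.65 over the alternatives. Which cells of the femur gave these transcripts was not tested. Of 7 genes of fibro-adipogenic progenitors, the stromal cells of muscle, 6 had a positive log2 fold change (median 0.48), and edgeR called 0 (0 at an unadjusted p under 0.05, 0 by DESeq2). Smoc2 measured 451 ± 150 CPM in LFD (SD, n = 4) and 614 ± 264 CPM in HFD (SD, n = 3), Pdgfra 30.7 ± 17.3 and 57.9 ± 18.4 CPM, and Ly6a 17.1 ± 15.9 and 23.9 ± 12.2 CPM. Of 6 tendon genes 5 were positive (median 0.70), edgeR called 0, with 2 higher at an unadjusted p under 0.05, and DESeq2 called Tnmd. Among all tested genes 48.5% were negative, 7.53% passed that unadjusted p and 2.09% were called by DESeq2, in either direction. Tnmd (tenomodulin), which is X-linked, measured 6.15 ± 1.75 and 29.7 ± 7.65 CPM, Thbs4 500 ± 145 and 819 ± 186 CPM, and Fmod 2488 ± 765 and 3983 ± 1140 CPM.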
